A study of Mus musculus with 46 samples.

Results

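The 10 genes described here, of 19521 in the deposited table, were followed across T-cell development in mice that express the leukaemia oncogene LMO2 in T cells. They were picked because their RNA differed between LMO2 transgenic and wild-type DN3 thymocytes by more than it did at later stages. Adam11, Adamtsl2, Cdh1, Npas2 and Rps6kl1 stood lower in transgenic DN3 cells. F2r, Adcy9, Shc4, Slc40a1 and St8sia6 stood higher. The genes were thus chosen by their measured genotype difference in DN3 and its contrast with later stages, so for these 10 genes the genotype differences, and whether they passed a threshold, are a description with no p-value. P-values for them are given only between stages other than DN3 within one genotype, while relatives of the genes were tested in DN3.

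LMO2 is an adaptor protein that joins GATA, TAL1 or LYL1 and LDB1 into complexes on DNA, and it is normally shut off as thymocytes commit to the T lineage. In the thymus, CD4-CD8- (double-negative, DN) cells pass from the DN1 stage, which still holds progenitors, to DN3, where the T-cell receptor beta chain is rearranged and tested. Cells that pass become CD4+CD8+ (double-positive, DP) and then CD4 or CD8 single-positive (CD4SP, CD8SP). LMO2 held on in this window gives DN3-like cells self-renewal in mice and is a cause of T-cell leukaemia in humans.

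RNA was sequenced from sorted cells of C57BL/6 mice of 2 genotypes. The transgenic mice are labelled hCD2-LMO2 knock-in, a name in which hCD2 usually stands for the human CD2 regulatory sequence that drives expression in T cells, and their groups were DN1, DN3, total DN, DP, CD4SP, CD8SP and splenic CD4+ and CD8+ T cells, with 3 libraries each. The wild-type groups were DN3, total DN, DP, CD4SP and CD8SP with 3 libraries each, and DN1 with 1 library. There was no wild-type spleen group, and ages are not given in the labels. The labels do not say that libraries came from separate mice, so p-values measure only the spread between these samples. Levels are in CPM (counts scaled to library size, with TMM factors over the 40 libraries), and between genes only the authors' length-corrected FPKM is compared.

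Library totals ran from 17211426 to 28842773 counts. Lmo2 stood at 25.4, 20.1 and 19.1 CPM in transgenic DN3 libraries, against 0.287, 0.218 and 0.211 CPM in wild-type DN3 libraries. In DN1 it was 36.4, 38.7 and 45.1 CPM in transgenic libraries and 31.7 CPM in the wild-type library. The library labelled transgenic DP replicate 3 had 0.395 CPM of Lmo2, against 78.8 and 70.0 CPM in replicates 1 and 2, so DP results are also given without it. In transgenic CD4SP, replicate 1 held 190 CPM of Cd4 and 347 CPM of the DN3 marker Il2ra, replicate 2 held 3093 CPM of Cd8a, and replicate 3 held 202 CPM of Il2ra and 804 CPM of Cd8a. Wild-type CD4SP libraries held 28.8 to 47.3 CPM of Il2ra and 43.5 to 148 CPM of Cd8a. Splenic CD8 replicate 1 held 435 CPM of Cd8a and 121 CPM of Cd3e, against 1507 to 1519 CPM and 713 to 721 CPM in replicates 2 and 3. The DN3 sort marker Il2ra was 1384 to 1417 CPM in transgenic and 1028 to 1203 CPM in wild-type DN3 libraries, while Ptcra, the invariant partner of the beta chain, was 14.9 to 36.8 CPM in transgenic and 180 to 208 CPM in wild-type ones.

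Promoter windows from RefSeq (GRCm38.p6), 250 bases before to 50 after the annotated start, matched 7 of the 10 genes. They are shown because LMO2 complexes are known to sit at E-boxes, the sites of TAL1 and E proteins. The 4 windows that hold the letters CAGNTG on either strand are given 5′ to 3′ on the gene's strand, with those letters in capitals.
Adamtsl2, chr2:27079129-27079428, plus strand: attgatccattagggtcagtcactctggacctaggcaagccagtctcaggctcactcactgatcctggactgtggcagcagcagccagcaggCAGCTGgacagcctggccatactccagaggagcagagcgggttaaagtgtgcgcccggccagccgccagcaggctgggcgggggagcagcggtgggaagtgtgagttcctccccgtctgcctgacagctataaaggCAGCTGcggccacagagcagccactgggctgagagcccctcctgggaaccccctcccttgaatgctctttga
Npas2, chr1:39194022-39194321, plus strand: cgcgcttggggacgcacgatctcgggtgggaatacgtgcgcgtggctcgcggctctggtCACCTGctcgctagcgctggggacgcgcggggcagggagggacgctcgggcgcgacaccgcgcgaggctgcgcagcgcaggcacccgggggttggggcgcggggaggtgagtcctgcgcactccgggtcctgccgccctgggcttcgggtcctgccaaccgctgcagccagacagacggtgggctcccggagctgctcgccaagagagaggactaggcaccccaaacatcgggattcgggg
Rps6kl1, chr12:85151215-85151514, minus strand: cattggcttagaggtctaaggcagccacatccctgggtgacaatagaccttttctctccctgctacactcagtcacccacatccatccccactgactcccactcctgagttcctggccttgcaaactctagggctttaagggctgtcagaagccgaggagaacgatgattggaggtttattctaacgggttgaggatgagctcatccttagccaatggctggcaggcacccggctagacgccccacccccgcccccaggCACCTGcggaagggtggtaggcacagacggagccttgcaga
F2r, chr13:95618417-95618716, minus strand: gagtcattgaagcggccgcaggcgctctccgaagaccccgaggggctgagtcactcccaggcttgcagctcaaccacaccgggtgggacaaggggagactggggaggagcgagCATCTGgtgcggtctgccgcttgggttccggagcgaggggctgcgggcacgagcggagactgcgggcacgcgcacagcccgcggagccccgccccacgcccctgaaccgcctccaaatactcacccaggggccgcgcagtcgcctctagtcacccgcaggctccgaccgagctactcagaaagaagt
Adamtsl2 had 2 matches, and Npas2, Rps6kl1 and F2r had 1 each. The windows of Adcy9, Shc4 and St8sia6 held none. The same letters were present in 51.4% of 32851 RefSeq promoter windows, so 4 of 7 is near what promoters hold in general. The looser CANNTG, which includes CAGNTG, was present in 72.3% of windows and in the same 4 of the 7. None of the 7 windows held the GATA-type letters AGATAA (11.2% of all windows) or TGATAA (9.05%), nor CACGTG (7.15%), the E-box bound by circadian factors. The RUNX-type letters TGTGGT (16.8%) were found only in F2r among the 7. The windows of Npas2, Adcy9 and St8sia6 lie wholly inside the gene spans given below, so the outer 5′ ends of those spans were not searched. A match in letters is no evidence of binding, and anti-LMO2 ChIP peaks were not analysed here.

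**Figure D1:**
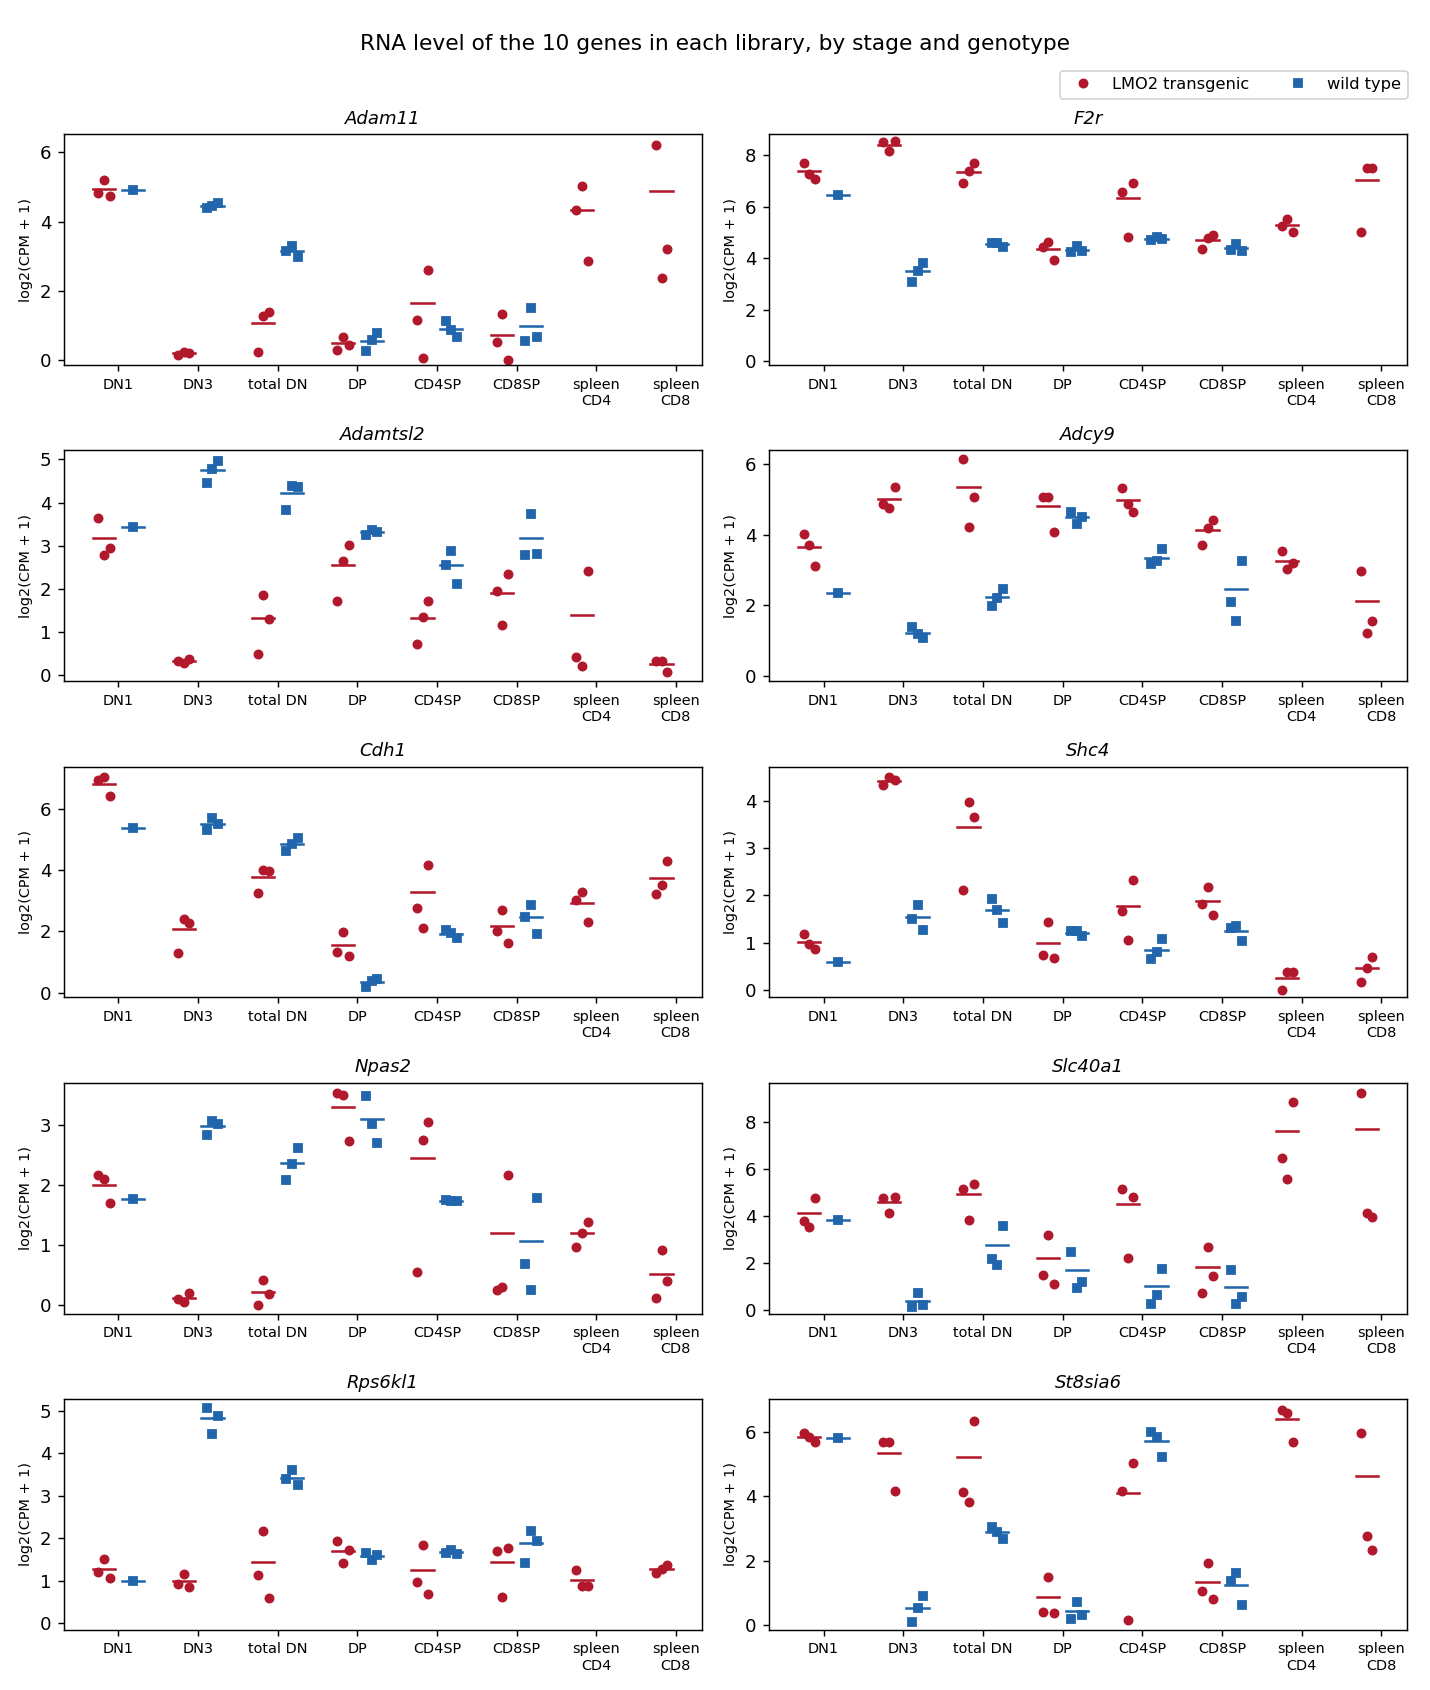
RNA level of each of the 10 genes as log2(CPM + 1), by stage, with 1 point per library and a bar at the log2 of the mean CPM plus 1, for LMO2 transgenic (red circles) and wild-type (blue squares) samples. In DN3 the 5 genes on the left lie lower and the 5 on the right lie higher in all 3 transgenic libraries than in all 3 wild-type libraries. In DN1, where wild type is 1 library, and in DP most genes overlap or lie close.

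Among the genes that stood lower in transgenic DN3, Adam11 (gene ID 11488, chr11:102761413-102780263 in RefSeq's GRCm38 annotation) encodes a membrane protein of the ADAM family that lacks protease activity. It was at 0.103, 0.172 and 0.144 CPM in transgenic DN3 libraries, against 19.9, 20.9 and 22.3 CPM in wild-type DN3 libraries. The log2 fold change was -7.19 ± 0.23 (SE) and the transgenic group held 12 counts in all. The groups are far apart and neither spreads much. In DN1 Adam11 was at 27.4, 35.9 and 25.5 CPM in transgenic libraries and 28.9 CPM in the wild-type library, as high as in wild-type DN3. In total DN it was at 0.174, 1.43 and 1.64 CPM in transgenic and 7.88, 8.85 and 6.84 CPM in wild-type libraries. In bulk samples such as these, fewer cells of a type and less RNA per cell cannot be told apart. From DP on it lay below 2 CPM in every thymic library except transgenic CD4SP replicate 3, which had 5.07 CPM.

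Adamtsl2 (gene ID 77794, chr2:27079336-27108981), the first promoter shown above, encodes a secreted glycoprotein of the extracellular matrix that is tied to TGF-beta availability. It was at 0.24, 0.207 and 0.287 CPM in transgenic DN3, against 20.9, 26.3 and 30.2 CPM in wild-type DN3, a log2 fold change of -6.70 ± 0.25. Wild-type DN3 (mean 25.8 ± 4.65 CPM, SD, n = 3) was its highest group, followed by wild-type total DN, and these groups did not overlap their neighbours in the order. Total DN showed 0.392, 2.63 and 1.46 CPM in transgenic and 13.3, 19.8 and 19.7 CPM in wild-type libraries. Its genotype difference kept the same direction later. In DP it was at 2.29, 5.24 and 7.07 CPM in transgenic and 8.46, 9.25 and 8.96 CPM in wild-type libraries. In CD4SP it was at 0.639, 1.53 and 2.28 CPM in transgenic and 4.83, 6.35 and 3.32 CPM in wild-type libraries. In CD8SP the values were 2.86, 1.24 and 4.09 CPM in transgenic and 5.91, 12.4 and 5.94 CPM in wild-type libraries. In each of these 3 stages all transgenic libraries lay below all wild-type ones, yet the differences of -0.87 ± 0.40, -1.67 ± 0.57 and -1.56 ± 0.52 did not pass the threshold, an adjusted p under 0.05 in edgeR's quasi-likelihood test.

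Cdh1 (gene ID 12550, chr8:106603350-106670247) encodes E-cadherin, a calcium-dependent adhesion protein by which early thymocytes can bind thymic epithelium. It was at 1.47, 4.27 and 3.88 CPM in transgenic DN3, against 38.4, 50.9 and 44.5 CPM in wild-type DN3, a log2 fold change of -3.80 ± 0.34. In DN1 it was at 120, 129 and 84.2 CPM in transgenic libraries and 40.2 CPM in the wild-type library. Transgenic DN1 was the highest of the 14 groups and overlapped no other. Total DN libraries held 8.55, 14.9 and 14.8 CPM in transgenic and 23.3, 27.6 and 31.9 CPM in wild-type libraries. In DP the order was the opposite, with 1.51, 2.95 and 1.29 CPM in transgenic and 0.142, 0.318 and 0.355 CPM in wild-type libraries. That DP difference, 2.76 ± 0.57, missed the threshold with all 6 libraries and passed it, at 2.98, without the library labelled transgenic DP replicate 3. It was the 1 member called there, with 7.6% of the genes tested called.

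Thymic epithelium also expresses Cdh1, and its markers were mixed in DN3. Of 11 such markers, 10 had counts in transgenic and 11 in wild-type DN3, with a summed level of 41.5 to 58.8 CPM in transgenic and 80.4 to 85.9 CPM in wild-type libraries. Epcam, at 9.86 to 21.9 CPM in transgenic and 49.6 to 56.1 CPM in wild-type libraries, carried the difference in the sum, and the other 10 summed to 31.7 to 36.9 CPM in transgenic and 25.7 to 36.4 CPM in wild-type libraries. Without overlap, Epcam, Cldn4 and Krt18 lay lower and Ly75 higher in transgenic DN3, and 7 markers overlapped. Foxn1 and Psmb11, which define that cell type, were at or below 0.215 CPM in every DN3 library of either genotype.

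Npas2 (gene ID 18143, chr1:39193702-39363240) encodes a bHLH-PAS transcription factor that can take the place of CLOCK in the circadian clock. It was at 0.0685, 0.0345 and 0.144 CPM in transgenic DN3, which is 7 counts over the 3 libraries, against 6.13, 7.45 and 7.14 CPM in wild-type DN3. The log2 fold change was -6.33 ± 0.39. Total DN had 0, 0.324 and 0.137 CPM in transgenic and 3.27, 4.1 and 5.14 CPM in wild-type libraries. In DP it was back at 10.6, 10.4 and 5.67 CPM in transgenic and 10.3, 7.15 and 5.53 CPM in wild-type libraries, so that the genotypes overlapped and the mean levels of DP and wild-type DN3 were the highest 3 of the 14 groups.

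Rps6kl1 (gene ID 238323, chr12:85135249-85151277) encodes a protein related in sequence to ribosomal S6 kinases. It was at 0.89, 1.24 and 0.825 CPM in transgenic DN3, against 32.3, 21.1 and 28.5 CPM in wild-type DN3, a log2 fold change of -4.78 ± 0.24. Wild-type DN3 (27.3 ± 5.7 CPM) and wild-type total DN (9.55, 11.3 and 8.54 CPM) stood above every other group with no overlap, and transgenic total DN was at 1.22, 3.5 and 0.502 CPM. All other libraries lay between 0.532 and 3.51 CPM. By FPKM it was the highest of the lowered genes in wild-type DN3, at 13.1 ± 2.91, near Cdh1 at 11.7 ± 1.67, and above Npas2 at 2 ± 0.212.

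Among the genes that stood higher, F2r (gene ID 14062, chr13:95601780-95618466) encodes the thrombin receptor PAR1, a receptor that is switched on when a protease cuts its outer end. It was at 359, 282 and 368 CPM in transgenic DN3, against 7.38, 10.4 and 13.1 CPM in wild-type DN3, a log2 fold change of 5.03 ± 0.22. By FPKM it was the most abundant of the 10 in transgenic DN3, at 110 ± 15.7, against 3.66 ± 1.04 in wild-type DN3. Transgenic DN3 was the highest of the 14 groups and overlapped none. In total DN it was at 118, 164 and 207 CPM in transgenic and 23.3, 23.1 and 20.6 CPM in wild-type libraries. In DP it was at 20.5, 24 and 14.2 CPM in transgenic and 17.8, 21.2 and 18.4 CPM in wild-type libraries. The genotypes overlapped in DP at a level close to that of wild-type total DN. In DN1 it was at 203, 153 and 134 CPM in transgenic libraries and 85.5 CPM in the wild-type library.

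Adcy9 (gene ID 11515, chr16:4284886-4437236) encodes a membrane adenylyl cyclase, which makes cyclic AMP on signals from G proteins. It was at 28.2, 26.3 and 40.1 CPM in transgenic DN3, against 1.61, 1.27 and 1.13 CPM in wild-type DN3, a log2 fold change of 4.56 ± 0.23. Levels in total DN were 69.6, 17.8 and 33 CPM in transgenic and 2.98, 3.6 and 4.48 CPM in wild-type libraries. In DP the genotypes overlapped, with 32.7, 32.5 and 15.9 CPM in transgenic and 24.1, 18.9 and 21.7 CPM in wild-type libraries. In CD4SP they did not, with 39.1, 28.5 and 24.2 CPM in transgenic and 7.98, 8.61 and 11.1 CPM in wild-type libraries. In CD8SP it was at 12, 17.4 and 20.3 CPM in transgenic and 3.26, 1.96 and 8.53 CPM in wild-type libraries. The transgenic level thus lay between 12 and 69.6 CPM from DN3 to CD8SP, while the wild-type level was highest in DP, against 1.13 to 11.1 CPM at the other stages from DN3 on.

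Shc4 (gene ID 271849, chr2:125627439-125724148) encodes an adaptor of the SHC family, which links tyrosine-phosphorylated receptors to Ras. It was at 19.2, 21.5 and 20.5 CPM in transgenic DN3, against 1.83, 2.47 and 1.41 CPM in wild-type DN3, a log2 fold change of 3.42 ± 0.22. The 3 transgenic DN3 libraries were close together and overlapped no other group. Total DN libraries were at 3.36, 14.7 and 11.6 CPM in transgenic and 2.81, 2.24 and 1.66 CPM in wild-type libraries. Elsewhere it was low, at 0 to 3.99 CPM in both genotypes.

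Slc40a1 (gene ID 53945, chr1:45908070-45926532) encodes ferroportin, the iron exporter, which macrophages that recycle red cells hold in large amounts. It was at 26.6, 16.7 and 27.2 CPM in transgenic DN3, against 0.107, 0.654 and 0.176 CPM in wild-type DN3, a log2 fold change of 6.22 ± 0.49. In total DN it was at 35.1, 13.5 and 41 CPM in transgenic and 3.47, 2.78 and 11.1 CPM in wild-type libraries. In CD4SP it was at 34.3, 3.63 and 27.4 CPM in transgenic and 0.19, 0.585 and 2.34 CPM in wild-type libraries. Of 14 macrophage and monocyte markers, 13 had counts in each genotype, and their sum was 6.88 to 9.37 CPM in transgenic and 15.7 to 20.8 CPM in wild-type DN3 libraries. Lyz2 and Cd68 made up most of that gap, and the other 12 summed to 3.49 to 5.89 CPM in transgenic and 4.66 to 7.34 CPM in wild-type libraries. Lyz2, Cd68 and Cd163 lay lower and Itgam higher in transgenic DN3 without overlap, and 10 markers overlapped. The defining ones, Adgre1, Csf1r, C1qa and C1qb, were each at or below 0.933 CPM in every DN3 library. In CD4SP the sum was 226, 71.2 and 337 CPM in transgenic and 19.8, 23.7 and 50.7 CPM in wild-type libraries, and its part in the CD4SP difference was not tested.

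St8sia6 (gene ID 241230, chr2:13651018-13794734) encodes a sialyltransferase that adds alpha-2,8-linked sialic acid, a sugar cap read by Siglec receptors. It was at 50.4, 50.3 and 17.0 CPM in transgenic DN3, against 0.0717, 0.436 and 0.845 CPM in wild-type DN3, a log2 fold change of 6.43 ± 0.70. Replicate 3 was lower than its partners but still well above wild type. The total DN values were 16.4, 13.1 and 78.9 CPM in transgenic and 7.29, 6.34 and 5.41 CPM in wild-type libraries. In DN1 it was at 61.8, 55.9 and 50.7 CPM in transgenic libraries and 54.5 CPM in the wild-type library. In CD4SP the order turned, with 16.7, 0.112 and 31.5 CPM in transgenic and 62.9, 55.7 and 35.8 CPM in wild-type libraries. The transgenic library with 0.112 CPM was replicate 2, the one with 3093 CPM of Cd8a, and DP libraries lay between 0.142 and 1.8 CPM.

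Some marker lists of other cells also stood higher in transgenic DN3, each through a few genes. The 10 markers of DN1 and progenitors summed to 554 to 833 CPM in transgenic and 161 to 188 CPM in wild-type DN3 libraries. Kit, Lyl1 and Hhex lay higher in transgenic DN3, Mef2c, Bcl11a and Cd34 lay lower, and Flt3 was at or below 0.0718 CPM in every DN3 library. Of the raised genes F2r and St8sia6 were high in DN1 too, but so were the lowered Adam11 and Cdh1, as given above. The raised Shc4 was low in DN1, at 1.28, 0.971 and 0.831 CPM in transgenic libraries and 0.522 CPM in the wild-type library. The DN1 libraries also held markers of other cells. Cd4 was at 423, 688 and 531 CPM in transgenic libraries and 548 CPM in the wild-type one. Macrophage markers summed to 449 to 1042 CPM and 712 CPM, and B-cell markers to 751 to 1140 CPM and 1774 CPM, in that order. The part of such cells in the DN1 levels was not tested. The 10 mast-cell markers summed to 715 to 1209 CPM in transgenic and 72.3 to 125 CPM in wild-type DN3 libraries, nearly all of it Cpa3 and Kit, while Fcer1a, Ms4a2, Mcpt4, Cma1 and Tpsb2 were at 0 in every DN3 library. Of 10 gamma-delta T-cell markers 5 were in the table, with sums of 266 to 599 CPM in transgenic and 108 to 124 CPM in wild-type libraries, mostly Sox13 and Cd163l1. The 10 markers of fibroblasts and endothelium summed to 475 to 605 CPM in transgenic and 134 to 177 CPM in wild-type libraries. Nearly all of it was Pdgfrb and Pecam1, with Col3a1 and Dcn at or below 0.0717 CPM. Against these sums, Mitf of the mast-cell list, Maf of the gamma-delta list and Cdh5 of the endothelial list lay lower in transgenic DN3 without overlap. Sums were lower for 3 lists, also through a few genes. B-cell markers summed to 16.8 to 27.2 CPM in transgenic and 49.7 to 61.1 CPM in wild-type libraries. Of these 9, Cd79b lay lower without overlap, Cd79a and Vpreb3 lay higher, and 6 overlapped. Dendritic-cell markers summed to 68.7 to 92.4 CPM in transgenic and 113 to 142 CPM in wild-type libraries. Of these 10, 5 lay lower, mostly Bst2 by level, and 5 overlapped. Markers of NK and innate lymphoid cells summed to 154 to 185 CPM in transgenic and 224 to 283 CPM in wild-type libraries. Of these 12, Gzma and Tbx21 lay lower, Gzmb and Rora lay higher, and 8 overlapped. The part of these markers in the levels of the 10 genes was not tested.

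Read by stage, the name "DN3-restricted" held in part. In DN3 itself all 10 passed the threshold, where 45.7% of 12037 genes tested did, and all 10 had groups that did not overlap, as 56.1% of 11904 expressed genes did. These shares belong to the contrast that chose the genes. In total DN, a mixture that includes DN3 cells, 8 of 10 passed the threshold against 12.4% of genes tested, all 10 had groups that did not overlap against 38.2%, and all 10 went the way they went in DN3. Slc40a1 at 2.34 ± 0.65 and St8sia6 at 2.47 ± 0.74 were those not called. The count of 8 became 7, 9 and 2 without transgenic replicates 1, 2 and 3, and 1, 1 and 4 without wild-type replicates 1, 2 and 3. The count over all genes moved too, from 179 to 3146 in these fits, against 1547 with all 6 libraries. F2r, at 2.83 ± 0.23, kept its call in all 6 of these fits. Total DN libraries also held markers of other cells. Erythroid (red-cell) markers summed to 48.6 to 2664 CPM in transgenic and 1508 to 22015 CPM in wild-type libraries. Macrophage markers summed to 45.5 to 422 CPM in transgenic and 80.9 to 177 CPM in wild-type libraries. C1qa was at 4.58, 12.7 and 57 CPM in transgenic and 5.89, 5.02 and 17.6 CPM in wild-type libraries. The part of such cells in the total DN values was not tested.

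In DP none of the 9 members tested passed in edgeR, where 0% of 11649 genes did. Cdh1 was the 1 member with an unadjusted p under 0.05 and the 1 called by DESeq2, as 2450 and 605 genes were in all. Adamtsl2 and Cdh1 had groups that did not overlap, against 22.3% of expressed genes. In CD4SP 3 of 10 passed, where 25.9% of 12073 genes did. They were Adcy9 at 1.75 ± 0.25, F2r at 1.67 ± 0.49 and Slc40a1 at 4.42 ± 1.13, all higher in transgenic cells. Groups did not overlap for these 3, Cdh1, Adamtsl2 and St8sia6, which is 6 of 10 members against 49.4% of expressed genes. The count called was 2, 6 and 2 without transgenic replicates 1, 2 and 3, and 0, 0 and 2 without wild-type replicates 1, 2 and 3. Over all genes it ran from 38 to 4329 in these fits, against 3132 with all 6 libraries. Transgenic replicates 1 and 3, which held the Il2ra given above, had 93.2 and 120 CPM of F2r, while replicate 2 had 27.6 CPM and wild-type libraries had 24.7, 27 and 26 CPM. Replicates 1 and 3 are also the CD4SP libraries whose count columns end in N, a suffix with no meaning given. The part of that Il2ra signal or of the suffix in the CD4SP values was not tested. In CD8SP none of 10 passed in edgeR, where 4.45% of genes did. There 3 members had an unadjusted p under 0.05, as 2270 of 11697 genes did. Adamtsl2 and Adcy9 were the 2 members that DESeq2 called, among 1248 genes. Adamtsl2, Adcy9 and Shc4 had CD8SP groups that did not overlap, against 25.1% of expressed genes. In DN1, with 1 wild-type library, none of 10 passed in edgeR, where 0% of 14845 genes did. There 1 member, Cdh1, fell under an unadjusted p of 0.05, as 157 genes did, and none of the 10 was among the 3 genes called by DESeq2.

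**Figure D2:**
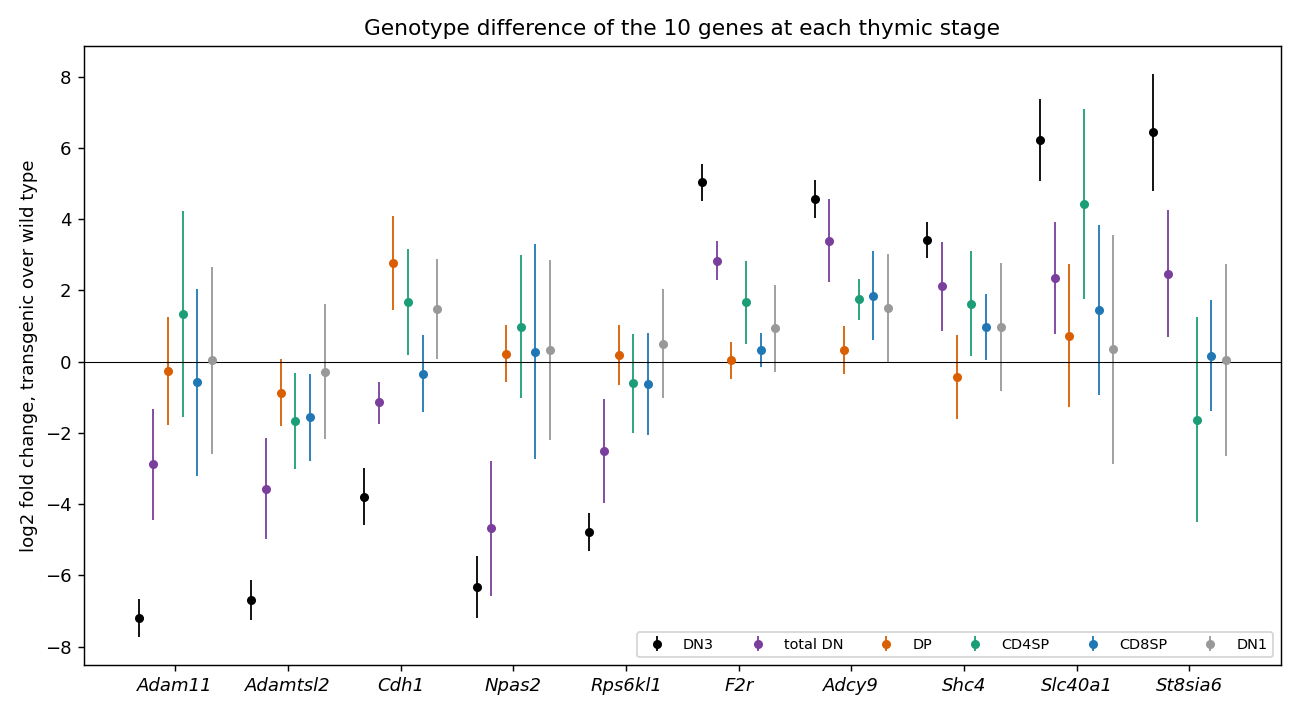
Log2 fold change of transgenic over wild type for each of the 10 genes (x axis) at DN3, total DN, DP, CD4SP, CD8SP and DN1, with 95% confidence intervals from edgeR's fit as vertical bars. St8sia6 was not tested in DP. The DN3 points lie farthest from 0 for every gene, from -7.19 for Adam11 to 6.43 for St8sia6. That order follows from the choice of the genes. The total DN points lie on the same side of 0 as the DN3 points.

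The difference of the DN3 effect from the DP effect passed the threshold for all 10, where 10.2% of genes tested did. From the CD4SP effect it passed for 9 of 10 (30.9% of genes), Slc40a1 being the one left out at 1.85, and from the CD8SP effect for 10 of 10 (6.98%). From the total DN effect it passed for 5 of 10 (6.02%). Those 5 were Adam11 at -4.33 ± 0.77, Adamtsl2 at -3.15 ± 0.70, Cdh1 at -2.66 ± 0.47, F2r at 2.18 ± 0.33 and Slc40a1 at 3.87 ± 0.95, and none of them passed in one fit of all 40 libraries. All of these contrasts hold the DN3 libraries that chose the genes, so their outcome follows from that choice and is no evidence of its own.

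In wild-type cells alone the 10 genes had courses of their own, tested here between stages other than DN3 (edgeR's quasi-likelihood test, Benjamini-Hochberg over all genes). At DP, against total DN, 7 of 10 changed, where 49.3% of 12369 genes did. Of the 7, 5 were lower and 2 higher, as 26.6% and 22.7% of genes tested were. Cdh1 fell most among them, to 0.142 to 0.355 CPM in DP, against 23.3 to 31.9 CPM in total DN (log2 fold change -6.64 ± 0.29, adjusted p = 3.35e-06 in edgeR). St8sia6 fell by 4.22 ± 0.44 (edgeR adjusted p = 0.000116), Adam11 fell by 4.09 ± 0.37 (5.82e-05), Rps6kl1 fell by 2.31 ± 0.22 (6.53e-05) and Adamtsl2 fell by 1.01 ± 0.19 (0.00267). Adcy9 rose by 2.53 ± 0.21 (edgeR adjusted p = 3.51e-05). Total DN includes DN3 cells. The lowered genes were chosen for a wild-type DN3 level above the transgenic one, and the raised genes for one below it. Falls of the lowered and rises of the raised genes at this step are thus not independent of the choice. Later stages also entered the choice, so the changes against DP given below may not be independent of it either. Npas2 was higher in DP by 0.86 ± 0.29 (edgeR adjusted p = 0.0358), a call lost without total DN replicate 1 or 2 (0.69 and 0.82) or DP replicate 1 or 2 (0.57 and 0.89). F2r at -0.25 ± 0.15, Shc4 at -0.78 ± 0.30 and Slc40a1 at -1.36 ± 0.70 did not pass.

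At CD4SP, against the same DP libraries, 6 of 10 changed, where 43.9% of 11923 genes did. St8sia6 rose to 62.9, 55.7 and 35.8 CPM in CD4SP, against 0.142, 0.635 and 0.237 CPM in DP (7.21 ± 0.44, edgeR adjusted p = 3.73e-05). Cdh1 rose by 3.34 ± 0.34 (edgeR adjusted p = 0.000279), though only to 2.43 to 3.12 CPM. Npas2 fell by 1.69 ± 0.27 (edgeR adjusted p = 0.00207) and Adcy9 fell by 1.21 ± 0.18 (0.00145). F2r was higher by 0.45 ± 0.11 (edgeR adjusted p = 0.0153), a call lost at 0.43 without CD4SP replicate 2 and at 0.41 without DP replicate 3. Adamtsl2 fell by 0.86 ± 0.24 (edgeR adjusted p = 0.0241), a call lost without CD4SP replicate 1, DP replicate 2 or DP replicate 3, at -0.86, -0.85 and -0.87.

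At CD8SP, against the DP libraries again, 3 of 10 changed, where 37.7% of 11691 genes did. Cdh1 rose by 3.95 ± 0.47 (edgeR adjusted p = 0.00107) and Adcy9 fell by 2.28 ± 0.48 (0.0092). Npas2 fell by 2.87 ± 0.73 (edgeR adjusted p = 0.0184), a call lost at -2.59 without CD8SP replicate 1. Its CD8SP libraries were at 0.601, 0.189 and 2.46 CPM, and the one with 2.46 CPM, replicate 3, also held 855 CPM of Cd4 against 95.4 and 31.3 CPM in the others. Transgenic CD8SP showed the same split, with 3.52 CPM of Npas2 and 1408 CPM of Cd4 in replicate 3, and 0.183 and 0.222 CPM of Npas2 in replicates 1 and 2. The part of that Cd4 signal in the Npas2 level was not tested. St8sia6 was at 1.55, 2.04 and 0.528 CPM in CD8SP, and its 1.93 ± 0.66 over DP missed the threshold (edgeR adjusted p = 0.0501), passing without CD8SP replicate 3 at 2.33 or DP replicate 2 at 2.76.

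In transgenic spleen the genes were set against transgenic thymus, with no wild-type spleen to compare. In splenic CD4+ cells, against CD4SP, 1 of 10 changed, where 24.5% of 12578 genes did. Adcy9 was at 10.6, 7.19 and 8.16 CPM in spleen, against 39.1, 28.5 and 24.2 CPM in CD4SP (log2 fold change -1.85 ± 0.29, edgeR adjusted p = 0.0113). That call was lost at -1.74 without splenic replicate 2. Shc4 was at 0, 0.313 and 0.301 CPM in spleen and 2.19, 1.08 and 3.99 CPM in CD4SP, a difference of -3.57 ± 1.11 that did not pass.

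In splenic CD8+ cells, against CD8SP, 8 of the 9 tested changed, where 37.3% of 12185 genes did. Adamtsl2 was at 0.25, 0.256 and 0.0527 CPM in spleen, against 2.86, 1.24 and 4.09 CPM in CD8SP (-3.90 ± 0.79, edgeR adjusted p = 0.0115), and it alone kept its call without each of the 6 libraries in turn. F2r was at 31.5, 178 and 179 CPM in spleen, against 19.6, 26.7 and 28.8 CPM in CD8SP (2.30 ± 0.63, edgeR adjusted p = 0.0307). Shc4 fell by 2.88 ± 0.68 (edgeR adjusted p = 0.0195), Adcy9 fell by 2.34 ± 0.67 (0.0342) and Cdh1 rose by 1.74 ± 0.50 (0.0357). Adam11 at 5.39 ± 1.63, Slc40a1 at 6.28 ± 1.86 and St8sia6 at 3.88 ± 1.22 were also called (edgeR adjusted p = 0.0415, 0.0385 and 0.0464). Without splenic CD8 replicate 1 they were 3.18, 2.52 and 1.61, no longer past the threshold. Of the 6 fits without 1 library, Adam11, F2r and Adcy9 kept their call in 1 each and Cdh1 in 2. The number called was 5, 4 and 4 without splenic replicates 1, 2 and 3, and 1, 2 and 2 without CD8SP replicates 1, 2 and 3. Over all genes it ran from 2626 to 5354 in these fits, against 4546 with all 6 libraries.

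The splenic CD8 library of replicate 1 also carried markers of other cells. Splenic CD8 replicate 1 held 599 CPM of Slc40a1, 73.1 CPM of Adam11 and 61.2 CPM of St8sia6, against 16.4 and 14.6, 4.15 and 8.17, and 5.81 and 4.01 CPM in replicates 2 and 3. Its 14 macrophage and monocyte markers summed to 4454 CPM, against 197 and 196 CPM, and its 9 B-cell markers to 4673 CPM, against 991 and 675 CPM. Splenic CD4 replicate 3 likewise held 461 CPM of Slc40a1 with 5562 CPM of macrophage markers, against 89.1 and 47.4 CPM of Slc40a1 with 1089 and 652 CPM in replicates 1 and 2. Its Adam11, at 6.26 CPM, was the lowest of its group, against 19.2 and 31.7 CPM. Erythroid markers summed to 1076 to 59465 CPM in splenic CD4 libraries and 207 to 720 CPM in splenic CD8 libraries. The part of these cells in the spleen values was not tested. Between splenic CD8+ and CD4+ cells none of the 8 members tested passed in edgeR, where 0.491% of 12429 genes did. F2r was the 1 member with an unadjusted p under 0.05 and the 1 called by DESeq2, as 1957 and 842 genes were in all. In edgeR 3 passed without splenic CD8 replicate 1: F2r at 2.23, Adcy9 at -2.40 and St8sia6 at -4.08. The share of 0.491% does not belong to that fit. Over all genes the count ran from 0 to 1289 without 1 library, against 61 with all libraries.

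**Figure D3:**
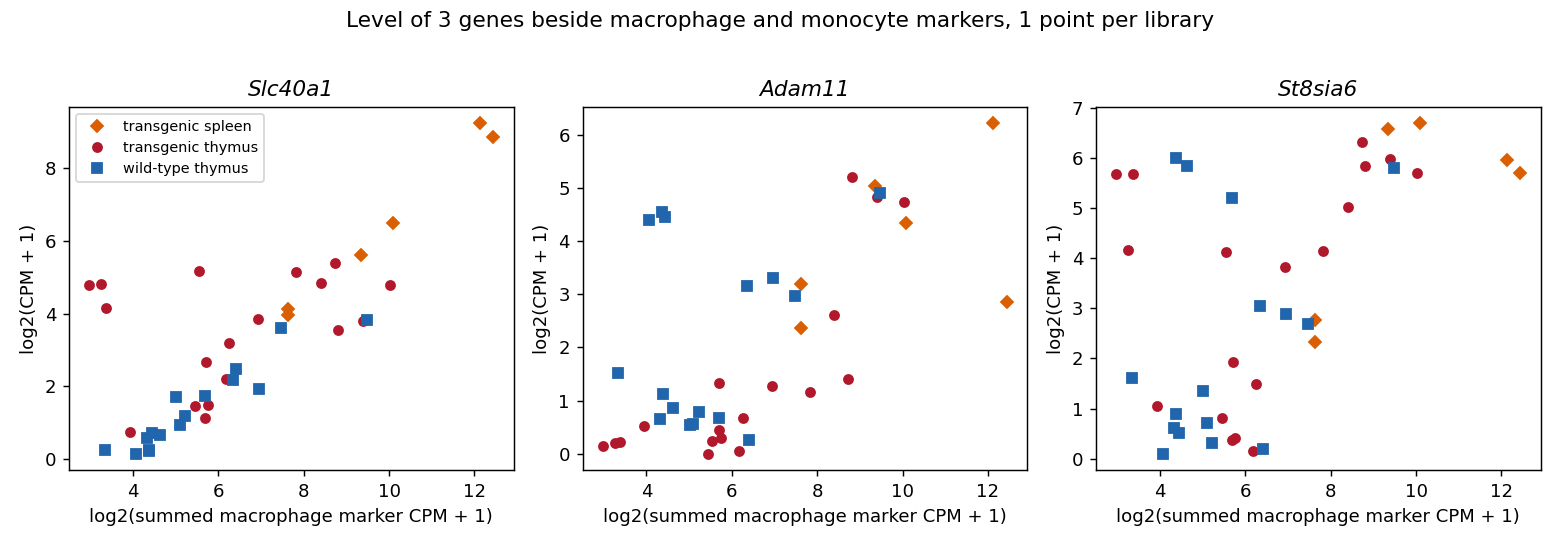
Level of Slc40a1, Adam11 and St8sia6 as log2(CPM + 1) in each of the 40 libraries against log2 of the summed CPM of 14 macrophage and monocyte markers plus 1, for transgenic spleen (diamonds), transgenic thymus (circles) and wild-type thymus (squares). In the Slc40a1 panel the 3 transgenic DN3 libraries stand at the upper left, with 16.7 to 27.2 CPM of Slc40a1 beside 6.88 to 9.37 CPM of the markers, and the 2 spleen libraries at the far right have 599 and 461 CPM.

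Relatives of the 10 genes were counted in DN3 from lists of their families and pathways, members left out. Over all genes tested the median log2 fold change was -0.03, 23.4% were called higher and 22.2% lower. With scaling by library totals alone that median was -0.155 and the calls were 2217 higher and 3726 lower, against 2822 and 2675 with TMM. With library totals 2 genes were lower, in place of 1, in each of the lists of protease-activated receptors, SHC adaptors and iron handling. Genes higher were 9, in place of 11, for protease-activated receptors and 6, in place of 9, for iron handling. They were 5, in place of 7, for S6 kinase relatives and 8, in place of 10, for cyclic AMP signalling. Without 1 DN3 library these counts ran from 9 to 12, 6 to 9, 5 to 7 and 8 to 12, in that order. Named relatives below kept their direction and their call in edgeR under library totals and without each DN3 library. Most were named for the smallest adjusted p in this same DN3 comparison, so that outcome largely follows from their choice.

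Of 13 other ADAM and ADAMTS-like genes tested, 2 were higher and 4 lower (median -0.16), with 4 higher without wild-type DN3 replicate 2. Adamts17, a secreted metalloprotease, was at 6.35 ± 1.48 CPM in transgenic and 41 ± 9.71 CPM in wild-type DN3 (log2 fold change -2.69 ± 0.22, edgeR adjusted p = 4.95e-05). Adam19, a membrane protease, went the other way, at 31.5 ± 15 CPM in transgenic and 0.539 ± 0.208 CPM in wild-type DN3 (5.86 ± 0.49, edgeR adjusted p = 0.000102). Of 14 genes of the E-cadherin junction and its ligands, 5 were higher and 4 lower (median 0.24). Ctnna1, alpha-catenin, was higher by 1.70 ± 0.14, and Zeb1, known in epithelia as a repressor of Cdh1, was higher by 0.96 ± 0.10. Itgae and Itgb7 encode the chains of the integrin that binds E-cadherin, and they were chosen after their values were seen. Itgae was at 0.835 ± 0.619 CPM in transgenic and 9.58 ± 4.16 CPM in wild-type DN3, while Itgb7 was at 146 ± 85.4 CPM in transgenic and 9.87 ± 3.94 CPM in wild-type DN3.

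Of 21 other circadian clock genes, 6 were higher and 2 lower (median 0.01, and -0.11 with library totals, where 3 were higher and 4 lower). That count rested on single libraries, with 3, 2 and 3 higher without transgenic DN3 replicate 3, wild-type replicate 3 and wild-type replicate 1, and 4 lower without the last. The list's median ran from -0.07 to 0.13 without 1 library. Rora, a nuclear receptor that activates Bmal1, was higher by 3.33 ± 0.35, and Per3 was lower (-1.01 ± 0.23). Hlf, a clock output factor, was at 0.023 ± 0.0398 CPM in transgenic and 0.586 ± 0.227 CPM in wild-type DN3. Of 13 S6 kinase relatives and partners, 7 were higher and 3 lower (median 0.50), among them Rps6ka2 at 2.17 ± 0.20 and Rps6ka5 at 1.59 ± 0.15.

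Of 17 genes of the protease-activated receptors and their G proteins, 11 were higher and 1 lower (median 0.58), and none was lower without wild-type DN3 replicate 1 or 3. Thbd encodes thrombomodulin, which binds thrombin, the protease that cuts PAR1. It was at 40.6 ± 9.12 CPM in transgenic and 1.55 ± 0.451 CPM in wild-type DN3 (4.71 ± 0.26, edgeR adjusted p = 6.22e-06). Arrb1, a beta-arrestin, was higher by 1.83 ± 0.13, and Gnai3 by 1.08 ± 0.14. Of 21 genes of cyclic AMP signalling, 10 were higher and 4 lower (median 0.34). Rapgef4, a cyclic AMP sensor, was lower (-3.39 ± 0.28), while the cyclase Adcy3 was higher by 1.52 ± 0.18 and the phosphodiesterase Pde4d by 1.18 ± 0.10. Of 14 genes that couple SHC adaptors to Ras, 7 were higher and 1 lower (median 0.53), with Rasgrp1 at 1.58 ± 0.14, Gab2 at 1.57 ± 0.28 and Grb2 at 1.26 ± 0.11. The 1 lower became 0 without transgenic DN3 replicates 2 or 3 or wild-type replicates 1 or 3, and 2 without transgenic replicate 1 or wild-type replicate 2.

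Of 18 other genes of iron handling, 9 were higher and 1 lower (median 0.30). Tfr2, a relative of the transferrin receptor, was at 13.4 ± 2.64 CPM in transgenic and 0.867 ± 0.326 CPM in wild-type DN3 (3.94 ± 0.30, edgeR adjusted p = 3e-05). Fbxl5, an iron sensor that marks iron-regulatory proteins for destruction, was the lower one (-0.71 ± 0.10), and Ncoa4, the receptor for ferritin turnover, was higher by 0.78 ± 0.13. Of 18 other sialyltransferases and sialic acid enzymes, 6 were higher and 3 lower (median 0.15), and 5 lower with library totals. St3gal2 was higher by 2.98 ± 0.22, the sialidase Neu3 by 2.30 ± 0.24, and Cmas, which activates sialic acid, by 0.84 ± 0.13. In total DN the same lists gave 0 to 5 genes higher and 0 to 2 lower each.

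**Figure D4:**
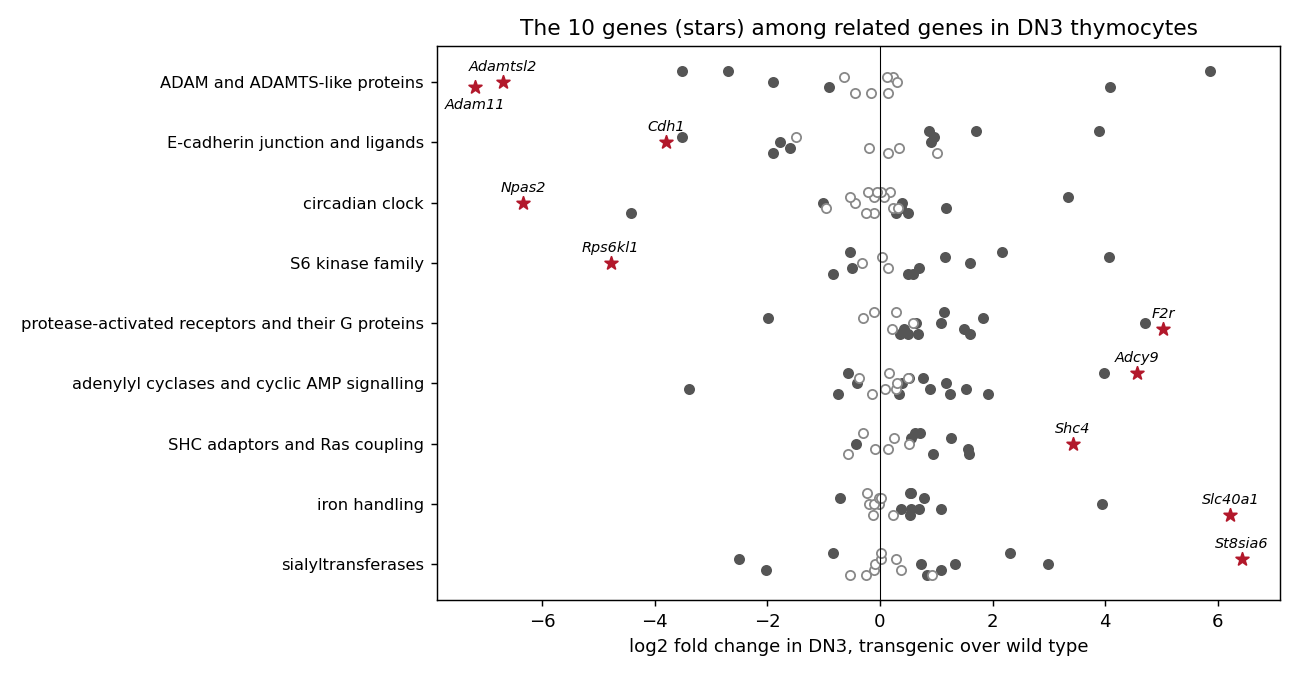
Log2 fold change of transgenic over wild type in DN3 for the 10 genes (red stars) and the other tested genes of 9 family and pathway lists (filled circles past an adjusted p of 0.05 in edgeR, open circles not). In each list the star lies farther from 0 than every relative on its side. The 10 genes were chosen by this DN3 difference, so that order follows from the choice. The nearest relatives are Thbd, at 4.71 beside F2r at 5.03, and Itgae, at -3.51 beside Cdh1 at -3.80.

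Across the 14 group means, the genes whose log2(CPM + 1) followed each member most closely were sought among 13271 genes, as a description in which the groups share genotype and stage. Rnf180 and Sh2b2 followed Adam11 (Pearson r = 0.97 each), and Nceh1 (0.97) and Gpr34 (0.92) followed F2r. Gnai3 followed Shc4 (0.97), Cntnap2 and Ttpa followed Rps6kl1 (0.96 each), and Rgl1 followed Slc40a1 (0.95). Lamc1 followed Adcy9 (0.95), Myo6 followed St8sia6 (0.93), Cysltr1 followed Cdh1 (0.91), and Il34 followed Npas2 (0.89). Adamtsl2 had the loosest match, Tgfbr1 at 0.81, which encodes a TGF-beta receptor. Among the members themselves the likeliest pair was Adam11 with Cdh1 at 0.80, then F2r with St8sia6 at 0.73, and the least alike was Adamtsl2 with Slc40a1 at -0.71.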

How the data were processed

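RNA of 40 sorted samples in 14 groups was analysed from the table of read counts and FPKM per gene that the authors deposited. Tools listed in the submitters' processing notes are Bowtie2, HISAT, MACS2 and DESeq2, with mm9 and mm10 as builds and no role for any. Which of them made the counts and FPKM, and whether strand was used, is not stated in the sources used here. Counts as deposited by the authors went into edgeR 4.0.16 (R 4.3.3, TMM scaling, filterByExpr with a count minimum of 10 and a total of 15, robust quasi-likelihood fits of the groups compared, prior count 0.125), with Benjamini-Hochberg adjustment over all genes tested and a threshold of 0.05. The DN1 contrast used a fit of all 40 libraries. Levels are CPM, counts over TMM-scaled totals over all libraries. The FPKM values the authors deposited were used only to compare levels between genes. Depth limits low genes, and 7 to 21 counts stood behind the transgenic DN3 levels of Adam11, Adamtsl2 and Npas2.

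Members and lists were chosen with earlier results of these data known. Named relatives are up to 4 per list with the smallest adjusted p in DN3, and 2 genes per member by correlation were sought. Alternatives were DESeq2 1.42.0, library totals, no filter, 1 fit of all libraries, a replicate block, a term for the suffix N that 12 count columns carry (its meaning is not given) and leaving out each library. Replicate numbers came from the labels, and in no comparison did all 3 same-numbered pairs correlate above 0.1, so they were not taken as pairs. An exact permutation test of 3 against 3 libraries cannot go below p = 0.1 (10 splits), so no single-gene test of that kind was run. No libraries were identical. Scripts were tested on simulated counts. Left out were 4 columns of samples not described here and 5 anti-LMO2 peak lists, which were not analysed here.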

Additional observations from a re-analysis of the deposited data

Results flagged for a closer look

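The genotype effect in DN3 was set against that at other stages with an interaction term. These differences hold the DN3 libraries that chose the genes, so the counts follow from that choice and are given as a description. The effect differed from that in DP for 10 of the 10 genes, from that in CD8SP for 10, from that in CD4SP for 9 and from that in total DN for 5.

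The count of 5 against total DN turned on single libraries, as did that over all genes, which ran from 19 to 2418. It was 3, 3 and 3 without transgenic DN3 replicates 1, 2 and 3, and 1, 6 and 1 without wild-type DN3 replicates 1, 2 and 3. It was 5, 6 and 5 without transgenic total DN replicates 1, 2 and 3, and 5, 3 and 3 without wild-type total DN replicates 1, 2 and 3. In one fit of all 40 libraries 0 passed, and DESeq2 called 7.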

How the results depend on the processing

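All 10 members kept direction and call in DN3 under the 11 alternatives run there. Counts of genes past the threshold moved more, and the cause was not tested. DESeq2 called 2633 genes for the genotype effect in total DN (1547 in edgeR), 605 in DP (0), 1248 in CD8SP (520), 3 in DN1 (0) and 842 between splenic CD8+ and CD4+ cells (61). For the DN3 effect minus another it called 2037 against total DN (776), 2295 against DP (1266) and 1529 against CD8SP (867). In one fit of all 40 libraries the counts were 2644 in DN3 (5497), 695 in DP, 5723 in CD4SP (3132), 43, 553 and 418 for DN3 minus total DN, DP and CD8SP, 6867 for splenic CD4+ against CD4SP (3085), 7722 for splenic CD8+ against CD8SP (4546) and 1164 between the spleen groups. Library totals gave 24 genes between the spleen groups, and turned more calls downward: 548 higher and 996 lower for DN3 minus DP (659 and 607 with TMM), 1556 and 2545 for DN3 minus CD4SP (1928 and 2011), 470 and 285 for DN3 minus CD8SP (649 and 218), and 2018 and 3933 for wild-type DP against total DN (2808 and 3291). A suffix term gave 1991 for DN3 minus DP, and was not run in total DN, CD4SP and DN1. In total DN and CD4SP, transgenic replicates 1 and 3 carried the suffix, while transgenic replicate 2 and all wild-type libraries did not. Suffix and genotype are thus largely confounded there.

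With a replicate block the counts were 5176 in DN3, 1494 in total DN, 0 in DP, 1362 in CD4SP, 798 in CD8SP, 2009 for splenic CD4+ against CD4SP, 3242 for splenic CD8+ against CD8SP and 0 between the spleen groups. The block kept 3 of the 8 member calls in splenic CD8+ against CD8SP. The replicate numbers were not taken as pairs, though with so few libraries the correlations cannot exclude that they mark a shared origin.

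Leaving out 1 library at a time gave 3802 to 6185 genes in DN3, 179 to 3146 in total DN, 0 to 906 in DP, 38 to 4329 in CD4SP, 9 to 724 in CD8SP and 0 to 3 in DN1. It gave 19 to 2418 for DN3 minus total DN, 352 to 2598 for DN3 minus DP, 2457 to 5265 for DN3 minus CD4SP and 433 to 1342 for DN3 minus CD8SP. It gave 4586 to 7181 for wild-type DP against total DN, 3747 to 6540 and 2163 to 5495 for wild-type CD4SP and CD8SP against DP, 461 to 3227 and 2626 to 5354 for splenic CD4+ and CD8+ against thymus, and 0 to 1289 between the spleen groups.

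Directions turned for differences that were not called. Of 38 genotype effects of members not called, 11 changed sign without 1 library, among them Adam11 in CD4SP (1.33, with -0.43 to 1.87), Slc40a1 in DP (0.72, with -0.62 to 1.71), Adam11 in CD8SP (-0.58, with -2.04 to 0.36) and Npas2 in CD8SP (0.28, with -2.42 to 1.78). In wild-type CD8SP against DP, Shc4 (-0.01) was 0.02 with library totals, 0.01 without a filter, 0.04 in one fit of all libraries and -0.11 to 0.15 without 1 library, Adamtsl2 (-0.18) was -0.63 to 0.01 and F2r (0.02) was -0.07 to 0.10. In splenic CD4+ against CD4SP, Adamtsl2 (0.10) was -0.09 with library totals, -0.96 with a block and -2.60 to 0.62 without 1 library, Cdh1 was -0.84 to 0.50 and Rps6kl1 -0.82 to 0.30. Between the spleen groups, Adam11 (0.55) was -0.10 with a block and -1.64 to 1.11 without 1 library, and Slc40a1 (0.02) was -1.41 with a block and -3.70 to 1.59.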
